A study of Mus musculus with 6 samples.

Results

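The core circadian clock genes Per1, Per2, Per3, Cry1, Arntl (which encodes BMAL1), Clock, Nr1d1, Nr1d2, Dbp and Tef were described in megakaryocyte-erythroid progenitors, marrow cells from which red cells and platelets descend. The 10 genes were found by their symbols in the GENCODE M21 annotation, and each matched 1 of the 55487 genes counted. The study asked what a short fast does to erythropoiesis. Bulk RNA was sequenced from progenitors sorted from the marrow of wild-type C57BL/6 mice aged 8 weeks, in 3 control libraries and in 3 libraries of mice that had been fasted for 6 h. No other genotype or agent is named for either group. The hour of the day at which marrow was taken, the feeding of the controls and the number of mice behind a library are not given in the sources used here, so p-values measure only the spread between these libraries, which may be technical.

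The mammalian clock is a transcription loop. BMAL1 and CLOCK pair on E-box sequences and drive the Per and Cry genes, whose proteins return to the nucleus and repress that pair. The same pair drives Nr1d1 and Nr1d2, which encode the nuclear receptors REV-ERB alpha and beta, repressors of Arntl, and the output factors DBP and TEF, which bind D-boxes. Clock transcripts differ with the hour of the day in most tissues, and the Per and Rev-erb genes stand high when Arntl stands low.

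The start regions of 4 members are shown, because they carry the sequences through which the loop is known to act and belong to the members with the highest levels (Per1, Cry1), the only D-box matches (Per3) and the place of common reference below (Arntl). Each window runs 5′ to 3′ on the gene's strand from 250 bases before to 50 bases after a RefSeq start (GRCm38.p6), and capitals mark motif matches.
Per1, chr11:69098699-69098998, plus strand: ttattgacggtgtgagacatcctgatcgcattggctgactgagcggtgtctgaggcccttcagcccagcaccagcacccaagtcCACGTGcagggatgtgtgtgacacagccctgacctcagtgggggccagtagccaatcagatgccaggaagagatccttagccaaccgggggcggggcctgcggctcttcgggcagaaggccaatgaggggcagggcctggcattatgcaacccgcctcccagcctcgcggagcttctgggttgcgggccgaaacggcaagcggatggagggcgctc
Cry1, chr10:85185005-85185304, minus strand: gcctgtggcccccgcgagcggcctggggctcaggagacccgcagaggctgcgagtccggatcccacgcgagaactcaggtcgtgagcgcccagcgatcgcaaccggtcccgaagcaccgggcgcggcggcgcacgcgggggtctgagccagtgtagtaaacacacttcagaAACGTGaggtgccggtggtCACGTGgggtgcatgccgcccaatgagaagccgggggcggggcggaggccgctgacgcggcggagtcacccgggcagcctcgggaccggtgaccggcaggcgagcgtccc
Per3, chr4:151044616-151044915, minus strand: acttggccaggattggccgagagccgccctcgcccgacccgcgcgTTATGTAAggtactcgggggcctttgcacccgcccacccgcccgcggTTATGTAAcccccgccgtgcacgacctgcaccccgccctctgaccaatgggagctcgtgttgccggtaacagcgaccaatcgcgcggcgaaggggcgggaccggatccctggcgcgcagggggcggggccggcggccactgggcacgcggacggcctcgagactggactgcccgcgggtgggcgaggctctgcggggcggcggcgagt
Arntl, chr7:113207261-113207560, plus strand: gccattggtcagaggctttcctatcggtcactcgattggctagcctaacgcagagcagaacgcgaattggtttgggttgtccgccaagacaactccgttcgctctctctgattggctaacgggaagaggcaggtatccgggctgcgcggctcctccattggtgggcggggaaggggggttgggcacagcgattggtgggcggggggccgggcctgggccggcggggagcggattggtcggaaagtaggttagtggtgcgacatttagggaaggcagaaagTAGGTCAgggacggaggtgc
Per1 held the E-box CACGTG with its first base 166 bases before the start shown. The window at the other Per1 start held no motif match. Cry1 held a CACGTG at 60 and the variant CACGTT, on the other strand, at 79 bases before the start. Per3 held the D-box TTATGTAA at 205 and again at 158 bases before the start. Arntl held TAGGTCA, an element bound by REV-ERB and ROR receptors, at base 31 after the start shown. The window at the other Arntl start held no motif match. Both strands were searched, and none of these matches overlapped another. Of the 10 members, 9 had 1 or more windows (14 in all). CACGTG was found for 3 members (Per1, Cry1 and Tef), in 4 of the 14 member windows, and in 7.15% of 32851 windows of all genes. CACGTT was found for 2 members (Cry1 and Nr1d1), in 2 of the 14 member windows, and in 4.68% of all windows. TTATGTAA or TTACGTAA was found for 1 member (1 window) and in 1.06% of all windows, and TAGGTCA for 1 member (1 window) and in 2.61%. The cAMP element TGACGTCA was found for 0 members and in 1.79% of all windows. A match is a run of letters and no measured binding site.

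Total counts ranged from 22.4 to 30.2 M in control and from 12.8 to 18.2 M in fasted libraries. Counts also fell on 1468 odorant and vomeronasal receptor genes, which blood cells do not use, at 8.98 to 16.0 counts per exonic kilobase. Had that rate held over all exons, background would have made up 3.90 to 8.58% of the counts in control and 11.5 to 14.6% in fasted libraries. Of the 10 progenitor markers checked, 9 lay at or above 5 times this background, among them Gata1, Klf1, Epor and Car1, and the summed level of the 10 ranged from 2513 to 4521 CPM (counts per 1000000 effective counts of a library) in control and from 3560 to 5178 CPM in fasted libraries. Granulocyte and monocyte markers, 10 of 10 at or above that level and led by Mpo, summed to 3586 to 17342 CPM in control and 997.5 to 4165 CPM in fasted libraries. Of the B and T cell markers 3 of 8 reached that level, and their sum was 63.8 to 101 CPM in control and 108 to 190 CPM in fasted libraries. Among the megakaryocyte and platelet markers it was 2 of 5, with sums of 149 to 166 and 109 to 137 CPM. For stem and multipotent markers it was 2 of 5, with sums of 588 to 804 and 394 to 750 CPM. The part that the background and these other cells had in the values below was not tested, and in bulk RNA fewer cells of a type and less RNA per cell cannot be told apart.

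No clock gene passed the test. The comparison was made over the 10648 genes whose mean count reached 5 times the background, with library factors taken from these genes, by edgeR's quasi-likelihood test with Benjamini-Hochberg adjustment. Of the 10 members, 6 entered it (Per1, Per2, Per3, Cry1, Nr1d1 and Nr1d2), and 0 had an adjusted p under 0.05, against 0% of all genes higher and 0% lower. At an unadjusted p under 0.05 there were 0 of the 6, against 11.6% of all genes higher and 8.3% lower. DESeq2 and limma-voom also called 0 of the 6, while over all genes DESeq2 called 501 and limma-voom 0. The members' median log2 fold change was 0.14, beside 0.02 over all 10648 genes. Fasted and control libraries did not overlap for 1 of the 6, Per2, which was higher, against 14.4% of all genes higher and 13% lower.

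Arntl, Clock, Dbp and Tef lay below 5 times the background, at 4.60, 2.82, 2.90 and 3.90 times. They were fitted with the same library factors among all 36508 genes that passed the expression filter, where 13.6% of genes were called higher and 0.698% lower. In that fit 0 of the 4 passed. For 3 of them (Arntl, Clock and Tef) every fasted library lay above every control library, beside 51.5% of the 25860 genes below 5 times the background that were higher in the same way and 0.178% that were lower. The median log2 fold change of those 25860 genes was 1.03, above the value of each of the 4. With factors taken from all 36508 genes by TMM, the median of the 10648 genes moved from 0.02 to -0.50, so the directions given below hold relative to genes above the background, and each reversal under that scaling is stated with its gene.

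**Figure D1:**
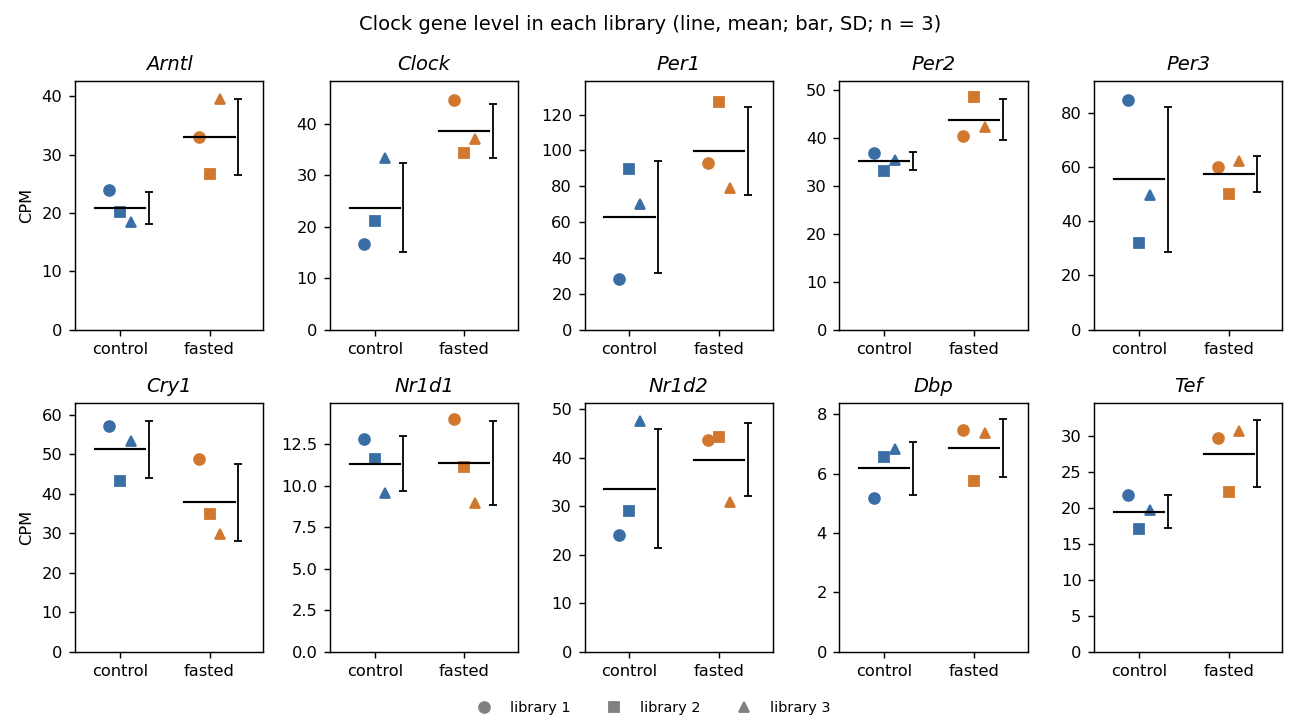
CPM of each clock gene (vertical axis, from 0) in the 3 control and 3 fasted libraries, with group mean and SD. Fasted libraries lie above every control library for Per2, Arntl, Clock and Tef, and the groups overlap for the other 6, while under TMM factors from all genes the log2 fold changes of Per2 and Tef turn negative.

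Cry1 (ENSMUSG00000020038.10, chromosome 10, 85131700 to 85185064, minus strand) encodes a repressor of the BMAL1 and CLOCK pair and was the only member with a negative log2 fold change under the factors used here. It had 57.1, 43.2 and 53.4 CPM in control libraries 1, 2 and 3, and 48.7, 35.0 and 29.8 CPM in fasted libraries 1, 2 and 3. Fasted libraries 2 and 3 lay below every control library, and fasted library 1 lay among the controls. Control libraries averaged 51.2 CPM ± 7.20 and fasted libraries 37.9 CPM ± 9.77 (SD, n = 3 each). This was a log2 fold change of -0.44 (SE 0.21; edgeR adjusted p 0.282). With 1 library left out it ranged from -0.30 without fasted library 3 to -0.66 without fasted library 1. With TMM factors from all 36508 genes it was -0.96 (SE 0.26; edgeR adjusted p 0.0412), the only call among the 10 members in that fit. That fit called 1.15% of all genes higher and 3.82% lower. Among the 10648 genes of the comparison, to which Cry1 belongs, it called 1368 lower and 8 higher, with a median log2 fold change of -0.50.

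Per1 (ENSMUSG00000020893.17, chromosome 11, 69095217 to 69109960, plus strand) encodes a repressor whose gene also responds within minutes to hormones and other signals. It had 28.5, 89.6 and 70.0 CPM in control and 93.0, 127 and 79.3 CPM in fasted libraries. Control library 1 was far below the other 5, and control library 2 lay within the fasted range. The fit gave 0.67 on the log2 scale (SE 0.41), with an edgeR adjusted p of 0.391, and without control library 1 it was 0.32 (edgeR adjusted p 0.461) and without fasted library 2 0.43. The immediate early genes, 9 of 9 at or above 5 times the background and led by Fos, summed to 2661, 7929 and 7656 CPM in control libraries and to 10610, 10266 and 9565 CPM in fasted libraries. Control library 1 was thus the lowest for both. In it the immediate early gene Nr4a1 had 4.63 CPM against 359 in control library 2, and Atf3 had 1.89 against 111. Other genes of the list differed by a smaller factor, such as Jun with 622 against 1056 CPM and Ier2 with 347 against 751 CPM. Dusp1 was not lowest there, with 608, 966 and 586 CPM in control libraries 1, 2 and 3. Genes induced by glucocorticoids, 5 of 6 at or above that level and led by Tsc22d3, summed to 210, 308 and 437 CPM in control and to 470, 559 and 448 CPM in fasted libraries. Of the 9 immediate early genes 9 had a positive log2 fold change, as did 5 of the 5 glucocorticoid-induced genes tested, and 0 of either passed. Their part in the Per1 values was not tested.

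**Figure D2:**
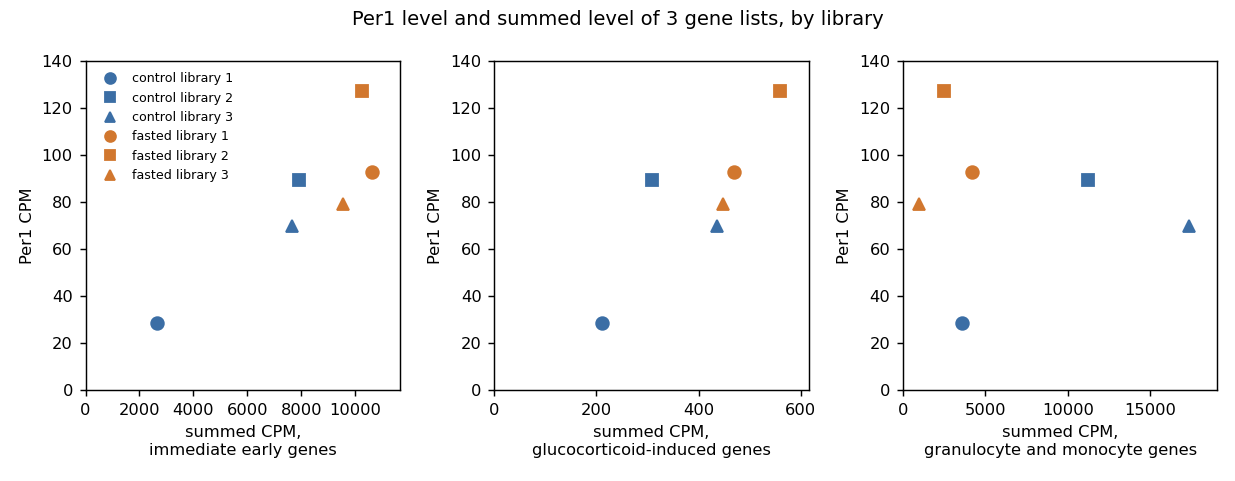
Per1 CPM (vertical axis) against the summed CPM of 3 gene lists (horizontal axes), 1 point per library. Control library 1 is lowest in Per1 (28.5 CPM) and in the immediate early (2661 CPM) and glucocorticoid-induced (210 CPM) sums, while the granulocyte and monocyte sum is highest in control library 3 (17342 CPM).

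Per2 (ENSMUSG00000055866.9, chromosome 1, 91415982 to 91459324, minus strand), the gene of the closest relative of PER1 in the loop, had 37.0, 33.2 and 35.4 CPM in control and 40.6, 48.7 and 42.3 CPM in fasted libraries. Every fasted library lay above every control library, and the controls differed little among themselves. The control mean was 35.2 CPM ± 1.89 and the fasted mean 43.9 CPM ± 4.29 (SD, n = 3 each). The fit gave 0.32 on the log2 scale (SE 0.16; edgeR adjusted p 0.286), and the direction turned to -0.20 (SE 0.24) with TMM factors from all genes. Without fasted library 2 it was 0.20. After subtraction of the background the values were 35.1, 29.9 and 31.0 CPM in control and 33.3, 42.7 and 35.7 CPM in fasted libraries, and the groups overlapped.

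Per3 (ENSMUSG00000028957.12, chromosome 4, 151003652 to 151044665, minus strand), the Per gene that the loop can run without, had 84.4, 31.98 and 49.8 CPM in control and 60.0, 49.8 and 62.0 CPM in fasted libraries. Control library 1 was the highest of the 6 for Per3 and the lowest for Per1. The fitted log2 difference was 0.05 (SE 0.32), edgeR adjusted p 0.949, and it was 0.48 without control library 1, -0.27 without control library 2 and -0.52 with TMM factors from all genes. The range of the controls held all 3 fasted libraries.

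Arntl (ENSMUSG00000055116.8, chromosome 7, 113207465 to 113314126, plus strand) had 23.9, 20.2 and 18.4 CPM in control and 32.9, 26.6 and 39.5 CPM in fasted libraries. All fasted libraries lay above all control libraries. Means were 20.8 CPM ± 2.78 in control and 33.0 CPM ± 6.45 in fasted libraries (SD, n = 3 each). Over all 36508 genes this came to 0.66 on the log2 scale (SE 0.23), with 0.0553 as the edgeR adjusted p. It passed with upper-quartile factors (edgeR adjusted p 0.0414), at a level of 10 times the background for the genes behind the factors (edgeR adjusted p 0.0383) and in DESeq2 (adjusted p 0.0371), and it was 0.11 with TMM factors from all genes (edgeR adjusted p 0.78). The fits in which it passed tested all 36508 genes. They called 6693, 7011 and 8445 of these higher, in that order, and 185, 170 and 310 lower. At the background rate, 10.1 to 30.2% of its counts in control and 21.2 to 28.9% in fasted libraries would be background. With the background subtracted the values were 21.5, 16.0 and 12.9 CPM in control and 23.6, 18.9 and 31.1 CPM in fasted libraries, so the groups overlapped, and the edgeR adjusted p was 0.435.

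Clock (ENSMUSG00000029238.11, chromosome 5, 76209868 to 76304792, minus strand), the gene of the partner of BMAL1, had 16.6, 21.1 and 33.3 CPM in control and 44.5, 34.4 and 37.0 CPM in fasted libraries. The groups did not overlap, although control library 3 and fasted library 2 were close. Over all 36508 genes it came to 0.71 on the log2 scale (SE 0.25), with 0.0576 as the edgeR adjusted p. It passed without control library 3 (log2 fold change 1.01, edgeR adjusted p 0.0188), with upper-quartile factors (edgeR adjusted p 0.0446) and at a level of 10 times the background for the genes behind the factors (edgeR adjusted p 0.0441), and it was 0.23 with TMM factors from all genes. In that order, those fits called 8883 of 37917, 6693 of 36508 and 7011 of 36508 genes higher, and 387, 185 and 170 lower. Before scaling Clock had 465, 498 and 658 counts in control and 512, 539 and 491 counts in fasted libraries. Of these counts, 26.5 to 36.2% in control and 38.1 to 41.4% in fasted libraries would be background. After subtraction the values were 12.2, 13.5 and 23.1 CPM in control and 27.5, 20.4 and 21.7 CPM in fasted libraries, and the groups overlapped.

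Nr1d1 (ENSMUSG00000020889.11, chromosome 11, 98767932 to 98775333, minus strand), the REV-ERB alpha gene, had 12.8, 11.6 and 9.55 CPM in control and 14.0, 11.1 and 8.97 CPM in fasted libraries. Both groups covered nearly the same range. The fitted log2 difference was 0.0014 (SE 0.25), edgeR adjusted p 0.998, and it was -0.53 (SE 0.30) with TMM factors from all genes and -0.21 (SE 0.32) with the background subtracted. Its mean count lay at 5.07 times the background, just inside the level required for the test. It reached that level through control libraries 1 and 2 (12.99 and 6.79 times), since control library 3 lay at 4.19 times and the fasted libraries at 3.68, 3.53 and 2.61 times. Thra, on the other strand, shares 263 exon bases with it (8.55% of its exons), and whether counting used strand is not given in the sources used here.

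Nr1d2 (ENSMUSG00000021775.11, chromosome 14, 18204054 to 18239127, minus strand), the REV-ERB beta gene, had 24.1, 29.1 and 47.5 CPM in control and 43.7, 44.2 and 30.8 CPM in fasted libraries. The range of the controls held all 3 fasted libraries, and control library 3 was the highest of the 6. Nr1d2 had a log2 fold change of 0.24 (SE 0.27), edgeR adjusted p 0.639, turning to -0.22 (SE 0.26) with TMM factors from all genes. It ranged from 0.05 without control library 1 to 0.55 without control library 3.

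Dbp (ENSMUSG00000059824.12, chromosome 7, 45705088 to 45710203, plus strand), an output gene with a large daily swing in many tissues, had the lowest counts of the 10 genes, with 145, 155 and 135 in the control group and 86, 90 and 98 in the fasted group. In CPM these were 5.17, 6.56 and 6.82 in the control group and 7.47, 5.74 and 7.38 in the fasted group, and the groups overlapped. The fitted log2 difference was 0.15 (SE 0.34), edgeR adjusted p 0.741, and it was -0.36 (SE 0.30) with TMM factors from all genes. Background would make up 18.5 to 32.5% of its counts in control and 45.2 to 53.2% in fasted libraries. After subtraction the values were 4.21, 4.90 and 4.60 CPM in control and 3.78, 2.68 and 4.05 CPM in fasted libraries. Every fasted library then lay below every control library, and the fit gave -0.31 (SE 0.46; edgeR adjusted p 0.816). With 1 library left out the fit without subtraction ranged from 0.032 without control library 1 to 0.23 without fasted library 2. The direction for Dbp thus changed with the treatment of background and with the scaling. Sphk2, on the other strand, shares 539 of its exon bases (18.0%).

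Tef (ENSMUSG00000022389.15, chromosome 15, 81802421 to 81826863, plus strand), whose protein binds the same D-boxes as DBP, had 21.8, 17.1 and 19.7 CPM in control and 29.8, 22.3 and 30.7 CPM in fasted libraries. The groups did not overlap, with fasted library 2 just above control library 1. The fitted log2 difference was 0.50 (SE 0.23), edgeR adjusted p 0.12, and -0.04 (SE 0.25) with TMM factors from all genes. With the background subtracted the values were 19.3, 12.7 and 13.9 CPM in control and 20.1, 14.3 and 21.97 CPM in fasted libraries, and the groups overlapped.

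**Figure D3:**
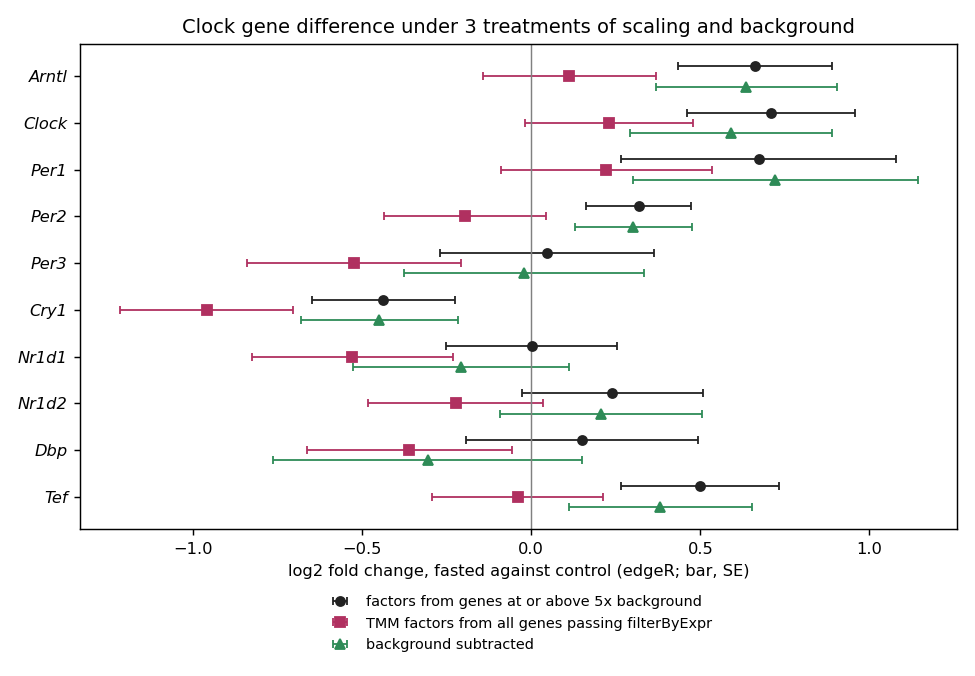
Log2 fold change of each clock gene, fasted against control, with its SE, for factors from the 10648 genes above the background level, TMM factors from all genes, and background subtraction. Under TMM factors from all genes the values lie lower for all 10 genes, from -0.96 for Cry1 to 0.23 for Clock, and those of Per2, Per3, Nr1d1, Nr1d2, Dbp and Tef have the opposite sign to the first setting.

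Levels of different genes were compared as CPM per exonic kilobase, over all 6 libraries. Per1 stood highest at 14.4 ± 5.74 and Cry1 followed at 13.3 ± 3.18 (SD, n = 6 libraries), and these ranges overlapped. Their order differed between the groups: in control libraries Cry1 averaged 15.3 ± 2.16 and Per1 11.1 ± 5.54, and in fasted libraries Per1 averaged 17.7 ± 4.38 and Cry1 11.3 ± 2.93 (SD, n = 3 each). Nr1d2 at 6.76 ± 1.80, Per2 at 6.75 ± 0.956 and Per3 at 5.86 ± 1.81 came next and overlapped with each other. The step from Cry1 to Nr1d2 was the only place in the order where neighbours' ranges did not overlap. Nr1d1 at 3.68 ± 0.618, Arntl at 3.58 ± 1.06, Tef at 2.997 ± 0.700, Clock at 2.27 ± 0.757 and Dbp at 2.18 ± 0.306 formed the low end. Here too the order turned, with Nr1d1 at 3.68 and Arntl at 2.77 in control libraries and at 3.69 and 4.39 in fasted libraries. Nr1d2 and Per2, and Clock and Dbp, also changed places between the group means. These levels include the background, so those of the low end are upper values. The repressor genes Per1 and Cry1 thus stood above their activators Arntl and Clock in each of the 6 libraries.

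**Figure D4:**
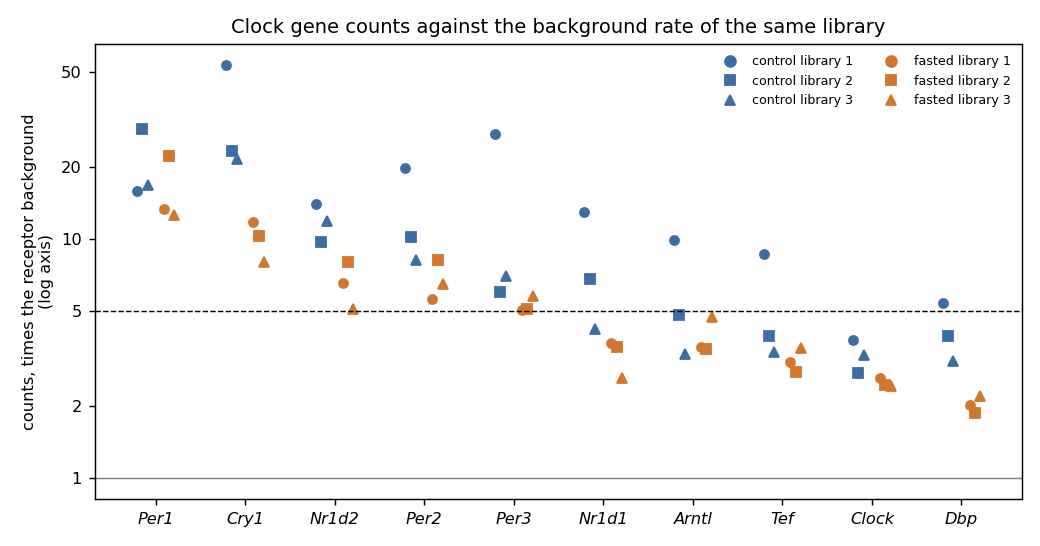
Counts of each clock gene divided by the background expected from its exonic length in the same library (log axis, dashed line at 5 times, solid line at 1), in order of level. Dbp in fasted libraries lies near 2, and control library 1 lies highest for 9 of the 10 genes.

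A ratio of a pair of genes within a library does not depend on the scaling between libraries, so each of the 9 other members was set against Arntl, as log2 of counts per kilobase. The control libraries had Cry1 to Arntl ratios of 2.43, 2.27 and 2.71, and the fasted libraries 1.74, 1.57 and 0.767. It was lower in 3 of 3 fasted libraries than in any control library, by 1.11 on average (difference -1.11, two-sided exact permutation p = 0.1, below which 3 against 3 libraries cannot go). For Nr1d1 to Arntl the control ratios of 0.390, 0.493 and 0.340 and the fasted ratios of 0.0546, 0.0288 and -0.849 again did not overlap (difference -0.66, exact permutation p = 0.1). Fasted library 3 carried much of this difference, which was -0.37 without it, and Nr1d1 lay below 5 times the background in all 3 fasted libraries. Under the factors used here Nr1d1 itself had a log2 fold change of 0.0014 and Arntl 0.66. With TMM factors from all genes these were -0.53 and 0.11. The ratio alone cannot tell which gene of the pair differed. How many of all genes would separate the groups in a ratio to Arntl was not tested. Groups overlapped for the other 7 ratios. Their differences were -0.34 for Per2, -0.50 for Per3, -0.37 for Nr1d2, -0.50 for Dbp, -0.16 for Tef, 0.11 for Clock and 0.14 for Per1, with exact permutation p between 0.2 and 0.9. Several of these rested on single libraries. With 1 library left out the Nr1d2 difference ranged from -0.68 without control library 1 to -0.010 without control library 3, and was -0.064 without fasted library 3 and -0.61 without fasted library 2. The Per3 difference ranged from -0.24 without control library 1 to -0.82 without control library 2, and that of Per2 from -0.18 without fasted library 3 to -0.56 without fasted library 2. The Tef difference was -0.068 without control library 3 and -0.11 without fasted library 3. After Benjamini-Hochberg adjustment over the 9 ratios the smallest p was 0.45. With the background subtracted from both genes, Cry1 and Nr1d1 had differences of -1.11 and -0.86, and Dbp had -0.96 (exact permutation p = 0.1 for each). All 9 ratios share Arntl, so they are not independent of each other.

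**Figure D5:**
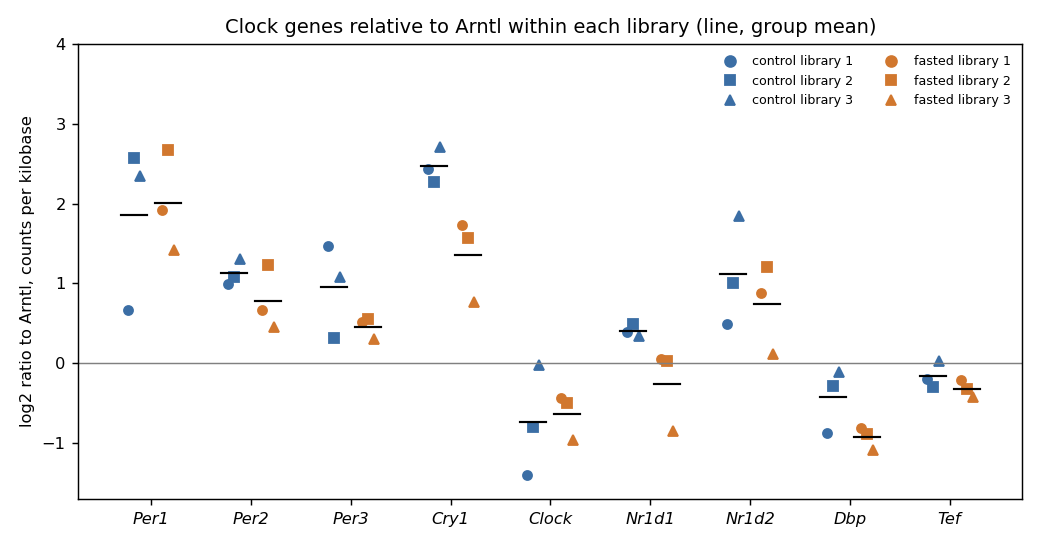
Log2 ratio of each member to Arntl (vertical axis, counts per exonic kilobase) in each library, with group means as lines. The fasted libraries lie below all control libraries for Cry1 and Nr1d1 and overlap with them for the other 7. How many of all genes would separate in this way was not tested.

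The wider clock pathway was a list of 40 genes from general knowledge, of which 29 reached 5 times the background. Of these 29, 0 passed the edgeR test. At an unadjusted p under 0.05 there were 3 higher and 2 lower, their median log2 fold change was 0.01, and the groups did not overlap for 5 higher and 5 lower genes (14.4% and 13% of all tested genes). The gene with the smallest p was Ciart, which encodes a further repressor of the BMAL1 and CLOCK pair. It had 6.92, 10.3 and 10.2 CPM in control and 14.9, 16.6 and 16.95 CPM in fasted libraries, with 0.82 (SE 0.24) as log2 fold change (edgeR adjusted p 0.151), and 0.33 with TMM factors from all genes. DESeq2 called 1 of the 29 genes, Ciart, beside 325 higher and 176 lower among all 10648 tested genes. Fbxw7, the gene of a ubiquitin ligase subunit, had 0.65 (SE 0.20) and Ep300, the gene of a histone acetyltransferase, 0.39 (SE 0.17), with edgeR adjusted p of 0.155 and 0.238, and Ep300 turned to -0.10 with TMM factors from all genes. Both lay just inside the level, at 5.25 and 5.01 times the background, and below 5 times in every fasted library. With the background subtracted the groups overlapped for Ep300 (control up to 43.7 CPM, fasted from 41.4 CPM) but not for Fbxw7.

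On the lower side the smallest p-values were those of the phosphatase subunit genes Ppp1ca and Ppp1cb and of Nono, whose protein binds PER complexes. Their log2 fold changes were -0.33 (SE 0.12), -0.30 (SE 0.13) and -0.30 (SE 0.13), with edgeR adjusted p between 0.196 and 0.254. These 3 and Nampt, an enzyme gene of NAD synthesis, were the 4 pathway genes called with TMM factors from all genes, all lower. That fit called 1368 lower and 8 higher among the 10648 genes of the comparison, to which all 4 belong. Cry2, the relative of Cry1, had 0.01 (SE 0.17, edgeR adjusted p 0.968) and turned to -0.52 with TMM factors from all genes. Nfil3, which encodes a repressor at D-boxes, had -0.14 (SE 0.46, edgeR adjusted p 0.884).

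Bhlhe40, the gene of an E-box repressor that also responds to many signals, had the largest SE of the 29 tested genes. It had 9.59, 47.7 and 160 CPM in control and 144, 226 and 39.9 CPM in fasted libraries, with a log2 fold change of 0.92 (SE 1.104, edgeR adjusted p 0.672). Pathway genes below 5 times the background were read from the test of all 36508 genes with the same factors, in which 17.9% of the 25860 genes below that level were called higher and 0.0155% lower. Rora, which encodes an activator of Arntl, had 0.94 (edgeR adjusted p 0.0337) and lay at 3.40 times the background, and Bhlhe41 had 1.37 (edgeR adjusted p 0.0352) at 1.73 times. Npas2, the gene of a stand-in for CLOCK, had 1.22 (edgeR adjusted p 0.05002) at 1.53 times. With the median of genes below 5 times the background at 1.03, Rora lay under that median. Hlf, the relative of Dbp and Tef that is also a stem cell marker, had -0.21 (edgeR adjusted p 0.539) at 3.17 times the background.

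Likeness over the 6 libraries was the Pearson correlation of log2 of CPM plus 0.5. The genes most like Per1 were the antisense gene model Gm17056 (r = 0.9993), the ribosomal RNA gene model CT010467.1 (0.989) and Ccrl2 (0.986). Those most like Arntl were Myo18a (0.995) and the processed pseudogenes Gm49316 (0.993) and Gm9442 (0.992). Gm9442 had only 0.354 to 3.16 CPM, a level at which the added 0.5 weighs on the correlation. A correlation of 0.95 was reached by 88 of 10647 genes with Per1 and by 112 of 10648 with Arntl. How often unrelated genes would reach such values over 6 libraries was not tested. All 6 libraries share the split in background and depth between the groups.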

How the data were processed

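RNA of sorted mouse progenitors was counted in 6 libraries. The authors deposited raw counts per gene with exonic lengths; per the submitters' processing notes, HISAT2 2.2.1, featureCounts 2.0.1 and GRCm38 were used, while annotation, strand and read filters are not given in the sources used here. With their version, 54435 of the 55487 gene identifiers matched GENCODE M21, and all 54435 had its merged exon length. The 10 members and all lists were chosen with earlier results of these data known, and so was the level of 5 times the receptor background. Background was the summed counts of 1468 protein-coding Olfr, Vmn1r and Vmn2r genes per exonic kilobase. The comparison of fasted with control used edgeR 4.0.16 in R 4.3.3 (filterByExpr, mean count at or above 5 times the background, TMM among these genes, estimateDisp and glmQLFit with robust settings, group only), called at an adjusted p under 0.05. CPM uses the effective library sizes of that fit. The SE is the log2 fold change over the square root of F. Members below the level came from a fit of all 36508 filterByExpr genes with the same factors. DESeq2 1.42.0 and limma 3.58.1 (voom), other scalings, levels of 3 and 10 times, background subtraction, a replicate block and leaving out each library were alternatives. Genes named beside the members were those of the pathway list with the 3 smallest p in each direction, 8 further clock genes and the 3 most like Per1 and Arntl. A gene of the pathway list is counted in it but not reported here. The code was tested on simulated counts.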

Additional observations from a re-analysis of the deposited data

How the results depend on the processing

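Directions of Per1, Cry1, Arntl and Clock held under every alternative that gave them a value. TMM factors from all 36508 genes gave Per2 -0.20, Per3 -0.52, Nr1d1 -0.53, Nr1d2 -0.22, Dbp -0.36 and Tef -0.041 as log2 fold changes, and called 1 member (Cry1, -0.96), 4 pathway genes and 1813 genes. This setting called 1368 lower and 8 higher among the 10648 genes of the comparison. That setting also tests all 36508 genes, and over these the factors of the comparison called 6 pathway genes and 5217 genes (4962 higher, 255 lower). Nr1d1, at 0.0014 in the comparison, turned to -0.022 with RLE factors, -0.030 with library totals, -0.13 at 3 times the background, -0.21 with background subtracted, -0.023 in DESeq2 and -0.027 in limma-voom. Per3 turned to -0.087 at 3 times the background and -0.022 with it subtracted, and Dbp to -0.31 with it subtracted. Arntl passed with upper-quartile factors (0.74), at 10 times the background (0.75) and in DESeq2 (0.64), and Clock with upper-quartile factors (0.78) and at 10 times (0.78). Those were fits of all 36508 genes, which called 6693 genes higher with upper-quartile factors, 7011 at 10 times and 8445 in DESeq2. Among the genes at or above the level alone, where Arntl and Clock were not tested, calls numbered 501 in DESeq2, which called 1 pathway gene. At a level of 3 times the background 6 genes were called. With 1 library left out, log2 fold changes ranged from -0.27 to 0.48 for Per3, from -0.18 to 0.14 for Nr1d1 and from 0.50 to 1.01 for Clock, calls over all genes from 0 to 3 (3 each without control library 1 and control library 3), and the ratios to Arntl from -0.45 to 0.50 for Per1 and from -0.22 to 0.47 for Clock. The Per1 ratio was -0.45 without control library 1 and -0.19 without fasted library 2, and the Clock ratio -0.22 without control library 1. At 3 times the background Clock and Dbp did not enter the fit. Beyond what the settings themselves change (library factors, genes tested, libraries used), the causes of these changes were not tested.

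The labels do not say whether replicate numbers pair the libraries. Deviations from the group means of same-numbered libraries correlated at -0.17, 0.14 and -0.33 over genes, which cannot decide it with 3 libraries in a group. With the number as a replicate block, 0 members and 0 genes were called and Nr1d1 was -0.0084. Depth limits Dbp, with 86 to 155 counts per library, and the level of 10 times the background left 2 members to test.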
